A study of Mus musculus with 4 samples.

Results

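The MYC, MAX and MXD network is a family of basic helix-loop-helix leucine zipper transcription factors that share the dimer partner MAX. Its members were taken here as 8 genes, Myc, Mycn, Max, Mxd1, Mxd3, Mxd4, Mxi1 and Mnt, out of 45526 genes or unnamed transcripts on the array. They were found by matching the accession of each probe to a RefSeq symbol, which gave 12 probes, 11 of them well above background on every array. All 8 genes had at least 1 probe, 4 had more than 1, and 7 entered the test together with 20505 genes or transcripts in all. Mycn did not pass the filter on dim probes.

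Transcript levels were measured on one-colour Agilent arrays in naive CD4+ T cells activated for 2 days, with 2 arrays from Irf4-/- mice and 2 from wild-type mice. All mice were male on a C57BL/6 background, and the T cells came from spleen. The cells were stimulated with an antibody to CD3e at 1 µg per ml beside mitomycin C-treated antigen-presenting cells, and living CD4+ cells were sorted again before RNA was taken. Irf4-/- cells lack a transcription factor that T cells induce after antigen receptor stimulation, and the labels do not describe the deleted stretch. The treatment protocol in the labels gives a culture time below these 2 days, which the titles and design text state. The study states 2 independent experiments per genotype. Nothing in the labels says which arrays share an experiment, so p-values measure only the spread between these arrays.

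MYC activates transcription as a dimer with MAX at the E-box CACGTG, and its best-known targets serve nucleotide, polyamine and ribosome synthesis and glucose use. MXD1, MXD3, MXD4, MXI1 and MNT compete for MAX and bring SIN3 and histone deacetylase corepressors to the same sites. In T cells Myc is induced by antigen receptor and interleukin 2 signals and is required for the growth that precedes division, while several MXD genes are known from cells that leave the cycle.

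The promoters of the antagonist genes that differed most between genotypes, Mxi1 and Mxd4, and of Mnt are shown because they hold the motif matches found among the members. RefSeq windows (GRCm38.p6) were at hand for 7 of the 8 members, all but Myc, with 9 windows in total, 3 of them for Mxi1. Each sequence runs 5′ to 3′ over the 250 bases before the start site, and capitals mark the matched motif.
Mxd4, chr5:34187711-34187960, minus strand, E-box: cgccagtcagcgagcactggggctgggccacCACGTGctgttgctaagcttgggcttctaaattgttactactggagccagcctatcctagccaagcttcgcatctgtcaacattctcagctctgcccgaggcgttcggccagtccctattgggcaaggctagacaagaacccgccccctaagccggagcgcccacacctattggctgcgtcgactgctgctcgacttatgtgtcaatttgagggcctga
Mnt, chr11:74830674-74830923, plus strand, E-box: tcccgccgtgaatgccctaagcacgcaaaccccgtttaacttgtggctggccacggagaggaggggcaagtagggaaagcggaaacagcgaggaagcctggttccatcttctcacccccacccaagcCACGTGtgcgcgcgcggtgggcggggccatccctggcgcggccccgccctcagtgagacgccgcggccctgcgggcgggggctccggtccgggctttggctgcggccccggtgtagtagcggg
Mxi1, chr19:53329163-53329412, plus strand, ETS and IRF composite: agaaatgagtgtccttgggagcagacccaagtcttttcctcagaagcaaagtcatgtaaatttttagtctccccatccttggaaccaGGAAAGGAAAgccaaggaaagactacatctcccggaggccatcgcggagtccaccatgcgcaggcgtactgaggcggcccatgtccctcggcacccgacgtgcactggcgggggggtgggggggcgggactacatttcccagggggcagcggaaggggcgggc

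Counted from the start site, the E-box match lies at -219 to -214 for Mxd4 and at -123 to -118 for Mnt. CACGTG was present in 2 of the 9 member windows and in 6.02% of all 32851 windows of this length. The composite of an ETS and an IRF site was found in 1 Mxi1 window at -163 to -154 and in 2.30% of all windows. No member window held the IRF pair of the interferon-stimulated response element (2.98% of all windows), the AP-1 site TGANTCA (6.75%) or either AP-1 and IRF composite element (joined 0.100%, spaced 0.0974%). Both strands were searched. The ETS and IRF composite and the IRF pair end in the same GAAA letters, and both AP-1 and IRF composites contain the AP-1 letters. These matches describe letters within the windows, and none is evidence of binding.

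Irf4 is the deleted gene. Its signal, as log2 relative to the 75th percentile of the array, was 4.23 and 4.04 in Irf4-/- cells against 5.03 and 4.74 in wild-type cells. The difference of -0.75 ± 0.20 (limma's moderated SE, n = 2 arrays per genotype) fell short of the threshold (limma, adjusted p = 0.231). Under a robust variance trend the adjusted p was 0.0258, and after normexp background correction it was 0.0267 (limma). A second Irf4 probe differed by -0.37 (limma, adjusted p = 0.561). Whether either probe lies within the deleted stretch is unknown here, so the signal does not check the labels.

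None of the 7 tested members passed at an adjusted p under 0.05 (limma, adjusted over all 20505), where 0.736% of all tested genes or transcripts passed (151, of which 101 were higher and 50 lower in Irf4-/- cells). At an unadjusted p under 0.05 there were 2 members, Mxi1 and Mxd4, against 11.4% of all tested. The arrays of the 2 genotypes did not overlap for 6 members, 2 higher and 4 lower in Irf4-/- cells, where 39.2% of all tested were free of overlap, 17.9% higher and 21.3% lower. Differences, given throughout as Irf4-/- minus wild type, had a median of -0.24 over the 7 members and -0.02 over all tested. Adjusted p of the members lay between 0.234 and 0.967.

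**Figure D1:**
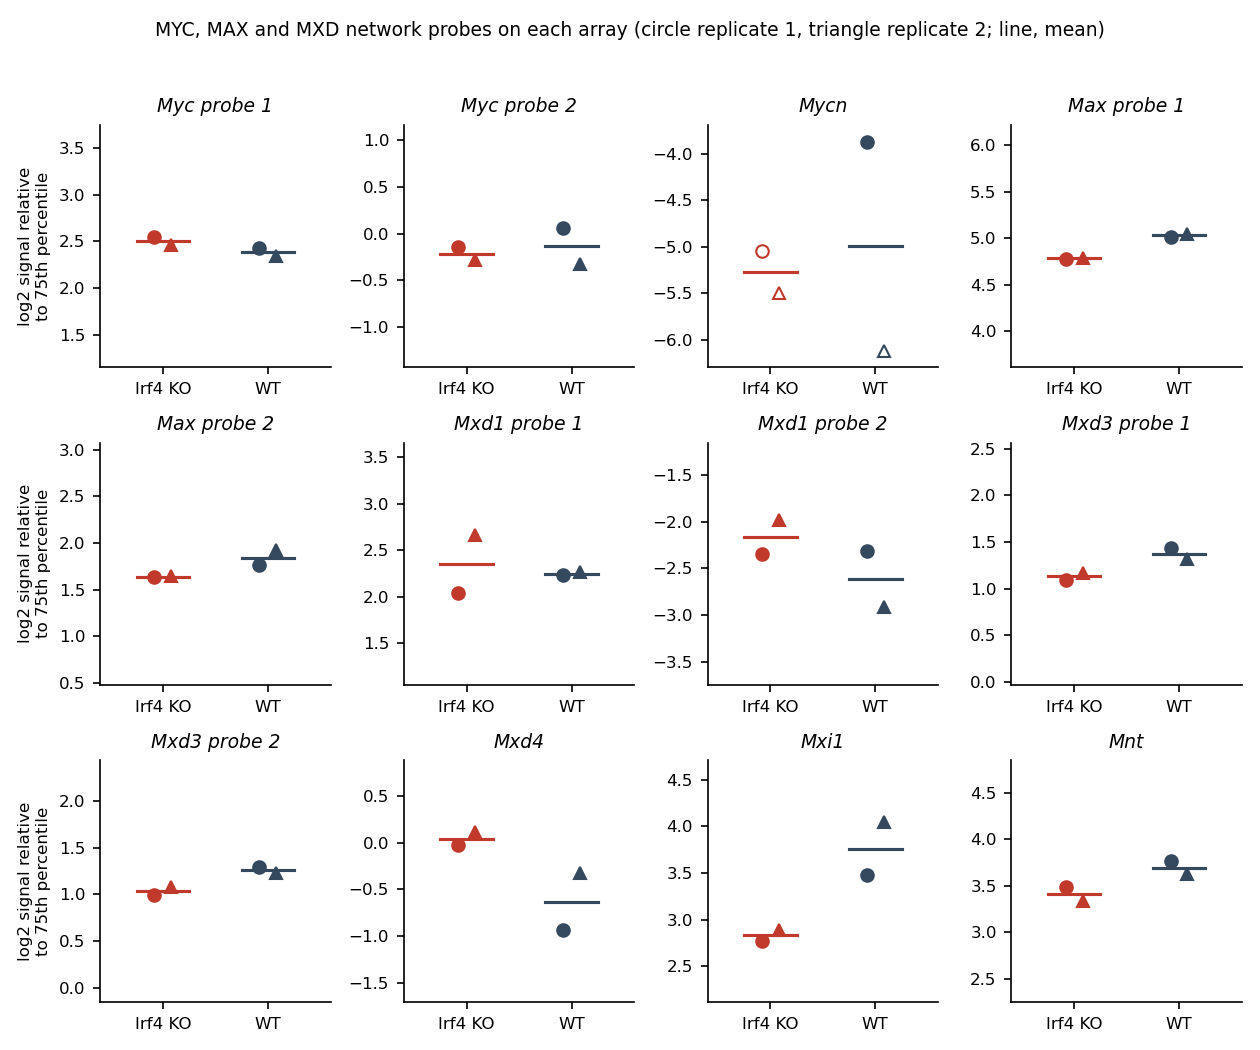
Log2 signal relative to the 75th percentile of the array for the 12 network probes, Irf4 KO (Irf4-/-) left of WT (wild type). Circles are replicate 1, triangles replicate 2, lines the mean of 2 arrays, and open symbols in the Mycn panel arrays not well above background. Every panel spans the same range, and levels are not comparable between probes. The Irf4 KO arrays lie below WT for Mxi1 and above WT for Mxd4, and for the first Myc probe the genotypes differ by 0.12.

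Myc itself, the activating member, differed little. Its brighter probe stood at 2.55 and 2.46 in Irf4-/- cells and at 2.43 and 2.34 in wild-type cells. The Irf4-/- arrays were higher than both wild-type arrays, by 0.12 in the difference of means, which is about the size of the gap between arrays of 1 genotype (0.09 in each). The test gave a log2 difference of 0.12 ± 0.17 (SE, adjusted p = 0.935, limma), and 65.0% of all tested genes had a larger absolute difference. The 95% interval ran from -0.32 to 0.55, so changes up to 1.47-fold higher or 1.25-fold lower lay within it. A second Myc probe stood at -0.14 and -0.29 in Irf4-/- cells against 0.06 and -0.33 in wild-type cells. Its groups overlapped and its difference was -0.08 ± 0.21 (SE, limma, adjusted p = 0.971), so the probes of Myc did not share a direction.

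Mycn, a paralogue best known from embryonic tissues, was near the limit of detection. Its probe read -5.04 and -5.49 in Irf4-/- cells, not well above background on either array, against -3.87 and -6.11 in wild-type cells, where replicate 1 was well above background. No fold is given for it and it was not tested.

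Max, the shared partner, was slightly lower in Irf4-/- cells on both probes without passing the test. The brighter probe was at 4.78 and 4.79 in Irf4-/- cells, against 5.01 and 5.05 in wild-type cells. The wild-type arrays lay 0.03 apart and the genotypes did not overlap. The difference was -0.25 ± 0.16 (SE, limma, adjusted p = 0.739), with a 95% interval from -0.67 to 0.18. The second probe gave 1.63 and 1.64 in Irf4-/- cells against 1.77 and 1.92 in wild-type cells, a difference of -0.21 (limma, adjusted p = 0.824).

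Mxi1, an antagonist that competes with MYC for MAX, showed the largest difference among the members. Its single probe read 2.77 and 2.88 in Irf4-/- cells, against 3.47 and 4.05 in wild-type cells. Both Irf4-/- arrays lay below both wild-type arrays, and the wild-type arrays were 0.57 apart, with replicate 2 the higher. The median gap between the arrays of a genotype over all tested was 0.24 for Irf4-/- and 0.23 for wild type. The difference of -0.93 ± 0.25 (SE), or 1.91-fold, did not pass over all genes (limma, adjusted p = 0.234), although its 95% interval, from -1.57 to -0.29, excluded 0 before adjustment. A larger absolute difference was seen in 6.49% of all tested. Mxi1 did pass when the variance prior followed a robust trend (limma, adjusted p = 0.0213) and after normexp background correction (limma, adjusted p = 0.0140). By slide row, which coincides with replicate number, Mxi1 differed by -0.70 in row 1 and -1.16 in row 2, and by -0.65 without wild-type replicate 2. In such bulk samples, fewer cells of a type and less RNA per cell cannot be told apart.

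Mxd4, an antagonist known from resting and differentiated cells, went the other way. Levels were -0.02 and 0.11 in Irf4-/- cells against -0.94 and -0.33 in wild-type cells. The genotypes did not overlap, and wild-type replicate 1 was 0.61 below replicate 2. The difference was 0.68 ± 0.26 (SE), and did not pass (limma, adjusted p = 0.424, 95% interval 0.02 to 1.34). It was 0.92 in slide row 1 and 0.44 in row 2, and leaving out wild-type replicate 1 lowered it to 0.37.

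Mxd1, the founding antagonist of the family, gave no settled direction. Its brighter probe read 2.05 and 2.67 in Irf4-/- cells, on either side of 2.23 and 2.27 in wild-type cells. The Irf4-/- arrays were 0.62 apart. The difference of 0.11 ± 0.26 (SE, limma, adjusted p = 0.967) turned to -0.20 without Irf4-/- replicate 2. The second probe read -2.35 and -1.98 in Irf4-/- cells against -2.32 and -2.92 in wild-type cells, again with overlap, and differed by 0.45 ± 0.28 (SE, limma, adjusted p = 0.697).

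Mxd3, which unlike the other MXD genes is known to be expressed in S phase, was lower on both probes without passing. The first read 1.098 and 1.17 in Irf4-/- cells against 1.44 and 1.31 in wild-type cells, and the second 0.99 and 1.08 in Irf4-/- cells against 1.29 and 1.23 in wild-type cells. The genotypes did not overlap on either probe. The differences were -0.24 ± 0.17 and -0.23 ± 0.17 (SE, limma, adjusted p = 0.765 and 0.778).

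Mnt, a broadly expressed antagonist that is larger than the MXD proteins, read 3.49 and 3.34 in Irf4-/- cells against 3.76 and 3.63 in wild-type cells. Both Irf4-/- values lay below both wild-type values. Differences per slide row were -0.28 and -0.29. The difference was -0.28 ± 0.18 (SE, limma, adjusted p = 0.700), or 1.22-fold, with a 95% interval from -0.74 to 0.17.

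**Figure D2:**
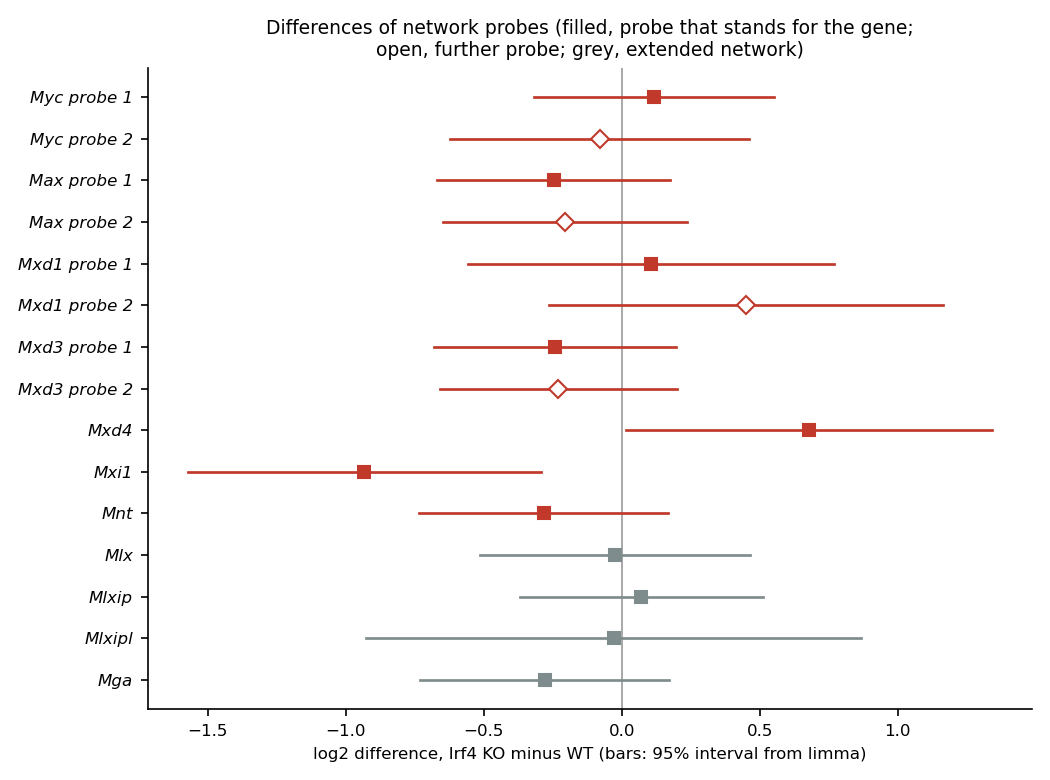
Log2 differences (Irf4 KO minus WT) with 95% intervals from limma for 11 network probes in red and 4 tested genes of the extended network in grey. Filled squares are the probes that stand for a gene. Open diamonds are further probes, each fitted in place of the probe that stands for its gene. The intervals of Mxi1 (-1.57 to -0.29) and Mxd4 (0.02 to 1.34) exclude 0 before adjustment, and all other intervals include it.

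To ask whether antagonist and activator transcripts changed unequally, each antagonist probe was divided by the brighter Myc probe on the same array. The log2 ratio of Mxi1 to Myc was 0.22 and 0.43 in Irf4-/- cells against 1.04 and 1.70 in wild-type cells, a difference of -1.05. For Mxd4 it was -2.57 and -2.35 in Irf4-/- cells against -3.37 and -2.67 in wild-type cells, a difference of 0.56. Both ratios were free of overlap between genotypes, in opposite directions.

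The Mnt ratio was 0.93 and 0.88 in Irf4-/- cells against 1.33 and 1.28 in wild-type cells, and differed by -0.40. The Mxd3 ratio was -1.45 and -1.29 in Irf4-/- cells against -0.995 and -1.03 in wild-type cells, and differed by -0.36. The Mxd1 ratio was -0.51 and 0.21 in Irf4-/- cells, around -0.20 and -0.08 in wild-type cells, with a difference of -0.01. Of these 5 ratios 4 did not overlap, where 47.4% of the ratios of all other tested genes to Myc were free of overlap. Each of the 4 reached the smallest p that 2 arrays against 2 allow (exact permutation test, two-sided, p = 0.333, Benjamini-Hochberg adjusted p = 0.417 over the 5). The design cannot reach 0.05 with this test, and the level of a ratio has no meaning between probes. All 5 ratios share the same Myc probe, so they are not separate observations. Ratios to the second Myc probe, which did not share the direction of the first, are not given. The count of 4 therefore holds for the brighter Myc probe only.

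**Figure D3:**
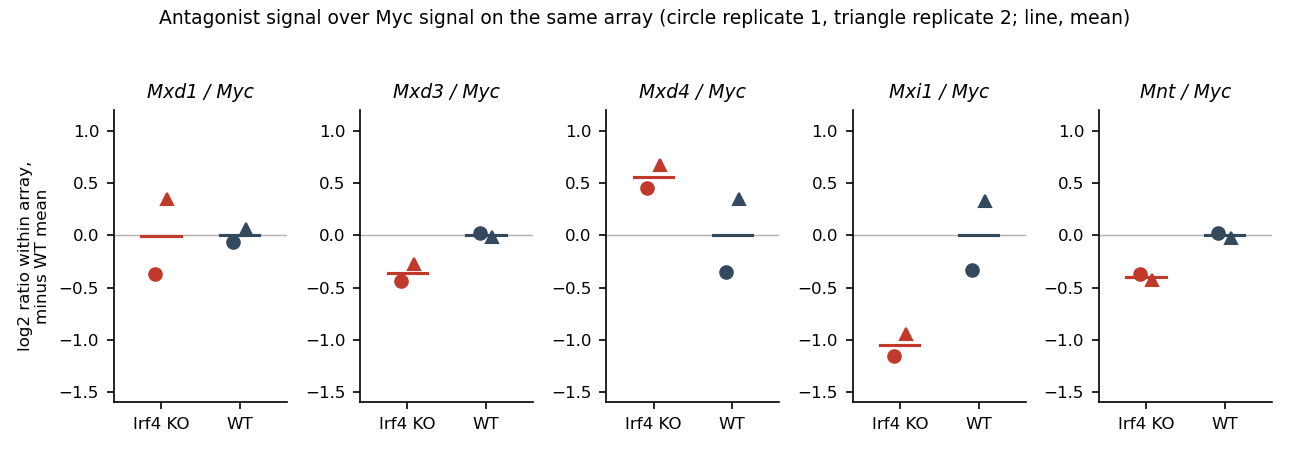
Log2 ratio of each antagonist probe to the Myc probe on the same array, less the mean of the 2 WT arrays, with Irf4 KO left of WT. Circles are replicate 1, triangles replicate 2 and lines means. The Mxi1 ratio differs by -1.05 and that of Mxd4 by 0.56, whereas the Irf4 KO arrays of Mxd1 lie on both sides of WT.

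The genes whose 4 values, centred on their mean, lay nearest to those of Myc among 11298 named genes above background on every array were Slc39a4, Dcp2, Ubb, Lrrc19 and Slc25a3. Their Euclidean distances from Myc ran from 0.0089 to 0.020 on the log2 scale. Nearest to Mxi1 were Ctla4 (distance 0.106), Hipk2 (0.120), Arhgef10 (0.144), Btbd16 (0.148) and Ddit4 (0.152). Ctla4, which encodes an inhibitory receptor, read 1.66 and 1.92 in Irf4-/- cells against 2.43 and 3.02 in wild-type cells. Ddit4, an inhibitor of mTOR signalling, read 6.26 and 6.18 in Irf4-/- cells against 6.91 and 7.40 in wild-type cells. These 5 neighbours of Mxi1 share its higher value on wild-type replicate 2, and none passed the test (limma, adjusted p 0.182 to 0.333). The distances rest on the same 4 arrays and are a description.

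The wider network holds factors that dimerise with MLX or MAX. Of its 5 genes 4 were tested and none passed. Mga, a MAX partner within a repressive Polycomb complex, read 0.61 and 0.43 in Irf4-/- cells on its brightest probe, against 0.83 and 0.76 in wild-type cells. The difference was -0.28 ± 0.17 (SE, limma, adjusted p = 0.709). Further Mga probes differed by -0.09 and -0.31, each with overlap between genotypes, and by -0.47 without overlap (limma, adjusted p 0.531 to 0.960). The differences were -0.03 for Mlx, the shared partner of this branch, 0.07 for Mlxip and -0.03 for Mlxipl, which encode the glucose-responsive partners (limma, adjusted p 0.966 to 0.996). Mycl, a further MYC paralogue, was not well above background on any array.

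Cofactors of MYC and MXD proteins had mostly small negative differences and none passed the test (0 of 20). At an unadjusted p under 0.05 there was 1, against 11.4% of all tested. Of the 20, 17 had negative differences, with a median of -0.17 (-0.19 in slide row 1, -0.11 in row 2), where 53.3% of all tested were negative with a median of -0.02. Hdac2, a deacetylase of the SIN3 complex that MXD proteins recruit, read -3.19 and -3.49 in Irf4-/- cells against -2.48 and -2.80 in wild-type cells, a difference of -0.70 (limma, adjusted p = 0.308). This probe was dim. The lowest level well above background was -4.67 and -3.93 on the Irf4-/- arrays and -4.82 and -4.07 on the wild-type arrays. The MYC-binding host cell factor gene Hcfc1 differed by -0.46 (limma, adjusted p = 0.511) and the scaffold gene Trrap by -0.32 (limma, adjusted p = 0.665).

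Among 24 genes that set the stability of MYC protein, none passed and 18 had negative differences (median -0.10), where 53.3% of all tested were negative. At an unadjusted p under 0.05 there were 3, against 11.4% of all tested. Fbxw7, the ubiquitin ligase subunit that targets phosphorylated MYC, read 0.17 and 0.37 in Irf4-/- cells against 0.72 and 0.83 in wild-type cells (difference -0.50, limma, adjusted p = 0.386). The F-box gene Fbxo32 differed by 0.79, the phosphatase subunit gene Ppp2r5a by -0.46 and the deubiquitinase gene Usp37 by -0.43 (limma, adjusted p 0.361 to 0.521). Arrays measure transcripts only, and MYC protein was not measured.

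Genes that MYC is known to induce went both ways, more of them lower in Irf4-/- cells. Of 65 tested, none passed over all genes and 5 had an unadjusted p under 0.05, where 11.4% of all tested did. Differences were negative for 48 and positive for 17, where 53.3% of all tested were negative. Their median was -0.06 against -0.02 over all tested. The genotypes did not overlap for 19 lower and 4 higher genes, where 21.3% of all tested were lower and 17.9% higher without overlap. Hk2, a hexokinase gene of glycolysis, read 1.12 and 1.19 in Irf4-/- cells against 2.19 and 2.47 in wild-type cells, a difference of -1.18 ± 0.19 (SE, limma, adjusted p = 0.0839). Odc1, encoding the rate-limiting enzyme of polyamine synthesis and a classical MYC target, read 6.82 and 6.34 in Irf4-/- cells against 5.52 and 5.36 in wild-type cells, a difference of 1.14 ± 0.23 (SE, limma, adjusted p = 0.138). Hk2 and Odc1 thus differed in opposite directions, each without overlap between genotypes.

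The branched-chain aminotransferase gene Bcat1 differed by -0.99 (limma, adjusted p = 0.176) and the glucose transporter gene Slc2a1 by -0.63 (limma, adjusted p = 0.270). All 4 of these genes passed after normexp and with the robust trend, as did Gadd45b, Il2rb and Nfatc2 of the lists that follow. CACGTG lay within the 250-base window of 11 of 54 MYC-induced genes with a RefSeq window, or 20.4%, against 6.86% of all genes with one. These genes were listed because they are known MYC targets, so the share describes the list and tests nothing.

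Genes that MYC is known to repress also differed in both directions. Of 16 tested none passed, and 6 had an unadjusted p under 0.05, where 11.4% of all tested did. Differences were negative for 10, where 53.3% of all tested were negative. The median of the list was -0.26 (-0.31 in slide row 1 and -0.11 in row 2). The stress-response gene Gadd45b read 2.93 and 3.15 in Irf4-/- cells against 2.32 and 2.26 in wild-type cells, a difference of 0.75 (limma, adjusted p = 0.194). Ndrg1, a gene that N-MYC represses, read 2.69 and 2.76 in Irf4-/- cells against 3.91 and 5.35 in wild-type cells. It differed by -1.90 ± 0.49 (SE, limma, adjusted p = 0.219), with -1.22 between the replicate 1 arrays and -2.59 between the replicate 2 arrays. The quiescence factor gene Klf2 differed by -1.23 (limma, adjusted p = 0.227). Ndrg1 and Klf2 passed after normexp and with median scaling.

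**Figure D4:**
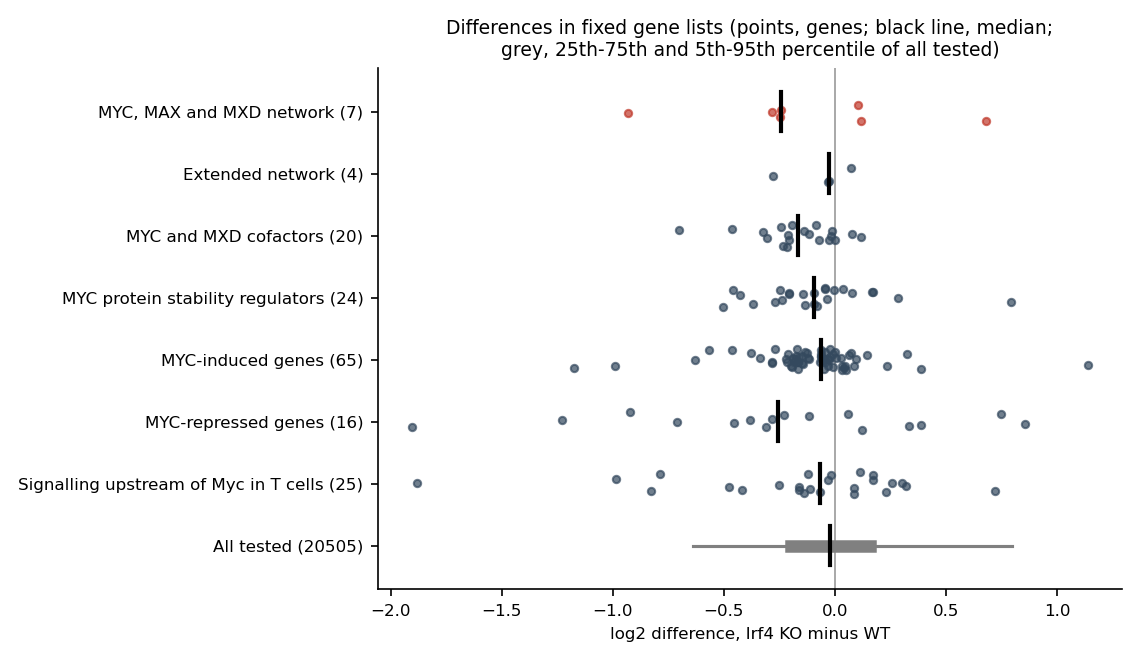
Log2 differences (Irf4 KO minus WT) of the tested genes in the network (red), the extended network and the MYC-related lists (blue), with the number tested in brackets. Black lines are medians, and the grey bars give the 25th to 75th and 5th to 95th percentiles of all 20505 tested. Medians lie between -0.26 (MYC-repressed genes) and -0.03 (extended network), against -0.02 over all tested.

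Signals that lie upstream of Myc in T cells were also measured. Of 25 genes none passed, and 5 had an unadjusted p under 0.05, where 11.4% of all tested did. Differences were negative for 15 (median -0.07), where 53.3% of all tested were negative. Il2, the cytokine gene, read -3.15 and -3.17 in Irf4-/- cells against -2.01 and -2.34 in wild-type cells, a difference of -0.98 (limma, adjusted p = 0.133). Its probe was dim too, with the lowest level well above background at -4.67 and -3.93 on the Irf4-/- arrays. The receptor gene Il2rb, whose product carries the interleukin 2 signal, read 5.83 and 6.06 in Irf4-/- cells against 6.71 and 6.82 in wild-type cells, a difference of -0.83 (limma, adjusted p = 0.168). The calcineurin-regulated factor gene Nfatc2 differed by -0.79 (limma, adjusted p = 0.166) and the NF-kappaB subunit gene Rel by 0.72 (limma, adjusted p = 0.320).

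Markers of the sorted cells and of other cells were read beside these values. All 9 T cell markers on the array, among them Cd3e and Cd4, were well above background on every array. Their summed signal relative to the 75th percentile was 1415 to 1479 in Irf4-/- cells and 1367 to 1497 in wild-type cells. Of the 9, 6 had negative differences, where 53.3% of all tested were negative, and their median was -0.02. Cd5 differed by 0.86 and Cd2 by -0.48, and neither passed (limma, adjusted p = 0.130 and 0.373). B cell markers summed to 2.09 to 5.25 in Irf4-/- cells and 1.58 to 3.001 in wild-type cells, with 6 of 12 above background on every array and Ebf1, Fcrla and Blk on none. Myeloid and dendritic markers summed to 27.3 to 28.9 in Irf4-/- cells and 25.8 to 27.3 in wild-type cells, again with 6 of 12 above background throughout and Lyz2, Adgre1, Fcgr3 and Itgax on none. Such sums weigh the brightest markers most. Negative differences were held by 3 of 9 tested B cell markers and 1 of 6 myeloid ones, where 53.3% of all tested were negative. The median differences were 0.56 and 0.20. Mpeg1 differed by 1.25, Cd68 by 0.60, Cd22 by 0.56 and Itgam by -0.30, and none passed (limma, adjusted p 0.249 to 0.755). Markers of CD8 T and NK cells summed to 19.2 to 23.1 in Irf4-/- cells and 30.4 to 67.6 in wild-type cells, with Ncr1 on none. Single markers of this list went both ways: Gzma differed by -2.19, Cd8b1 by -0.98 and Klrk1 by -0.75, whereas Klrd1 differed by 1.87 and Eomes by 1.44. All 5 had an unadjusted p under 0.05 and none passed after adjustment (limma). Erythroid and platelet markers summed to 1.05 to 1.83 in Irf4-/- cells and 0.697 to 0.870 in wild-type cells, with 2 of 9 above background throughout and Alas2, Pf4, Ppbp and Gp9 among those on none. The part of other cells in the differences of the network was not tested.

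**Figure D5:**
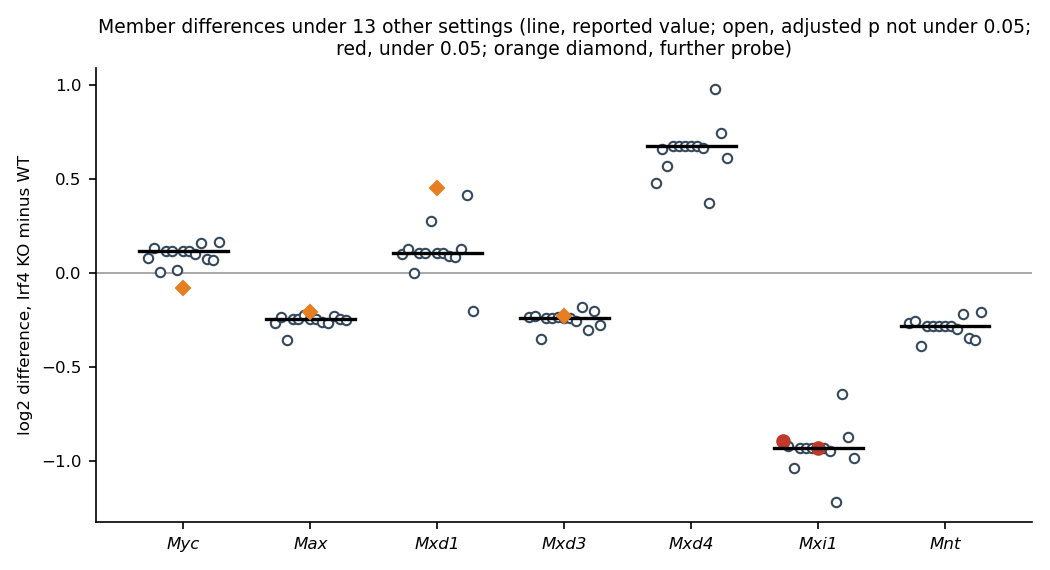
Log2 differences (Irf4 KO minus WT) of the 7 tested members under 13 other settings. Black lines are the reported values, open circles settings with an adjusted p not under 0.05, red circles settings under 0.05 and orange diamonds further probes of the gene. Red circles appear for Mxi1 alone, whose differences range from -1.22 to -0.65, while those of Mxd4 range from 0.37 to 0.98.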

How the data were processed

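The deposited intensity values are background-subtracted spot signals that the authors extracted with Agilent Feature Extraction 11.0.1.1, per the file headers, while version 9.1 is named in the submitters' processing notes. The array design was built on mm9. A table of log2 values was deposited too. Its columns matched log2 of the scanner signal less the 75th percentile, centred per probe, within 0.01 after a shift of at most 0.03 per array. Column medians were -0.11 and 0.12 for Irf4-/- arrays and -0.16 and 0.10 for wild-type arrays, and it served only as an alternative.

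Control and flagged spots were left out, and log2 signal less the 75th percentile of non-control spots was used. Through RefSeq accessions (GRCm38.p6), 32994 of 56605 probes received 1 of 22911 symbols. The probe with the highest mean stood for a gene, and it was tested where well above background on both arrays of a genotype. Between 25677 and 28725 probes were well above background per array, and arrays correlated at r = 0.989 within Irf4-/- and 0.992 within wild type. The number of arrays limits the precision.

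Genotypes were compared with limma 3.58.1 (lmFit, eBayes; R 4.3.3). P-values were adjusted by Benjamini-Hochberg over all tested. All arrays lay on 1 slide. Slide row 1 held each genotype's replicate 1, and row 2 its replicate 2. Both wild-type arrays lay in column 1 and the Irf4-/- arrays in columns 3 and 2, so column and genotype cannot be told apart. The files hold no mean spot signal, so normexp (offset 50) used median signal. Alternatives changed background, scaling, filter, probe summary, variance model, block, value table and arrays.

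The members and lists were chosen with earlier results of these data known. The text names all members, the 5 genes of the wider network, up to 4 genes with the smallest p in each MYC-related list, markers, and the 5 genes nearest to Myc and to Mxi1. A few genes that this rule would name are not reported here.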

Additional observations from a re-analysis of the deposited data

How the results depend on the processing

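Of 95 values recomputed for the tested members, 5 changed their call or direction. Mxi1 passed with normexp (-0.90, adjusted p = 0.0140) and with trend and robust settings (adjusted p = 0.0213), the other 11 alternatives leaving it between -1.22 and -0.65 without a call. Mxd1 turned to -0.0027 with median scaling, which moved the median of all tested by -0.11, and ran from -0.20 without Irf4-/- replicate 2 to 0.42 without Irf4-/- replicate 1. The second Myc probe gave -0.080. The Mxd1 to Myc ratio turned to 0.019 with normexp and 0.26 with the mean over probes, and ran from -0.37 to 0.35 when 1 array was left out. The other 4 ratios kept their direction under all 13 alternatives. Median scaling, the filters, the variance model, the block and the authors' value table leave a within-array ratio as it is. Those alternatives could therefore not turn any ratio, and a ratio to the second Myc probe alone was not among the 13. The number of members called was therefore 1 with normexp and with trend and robust settings, and 0 under each other alternative. Over all genes limma called 760 with normexp, 797 with trend and robust settings, 1042 with median scaling, 260 from the authors' value table, 1 with quantile normalization and 0 without a filter (2099 at an unadjusted p under 0.05). With replicate number as a block it called 0 (3195 unadjusted), members included. As no gene passed there, the block cannot show whether the calls of members are stable. Deviations of same-numbered arrays correlated at r = 0.348, which with 2 pairs and no label does not establish pairing. Leaving out 1 array gave 0 (without wild-type replicate 1 or 2; 1864 and 1678 unadjusted) to 487 calls (without Irf4-/- replicate 1), where 151 were reported. In the gene lists, markers included, where 0 genes passed (31 unadjusted), 16 passed with normexp, 13 with median scaling and 10 with trend and robust settings, and 0 to 1 when 1 array was left out. The cause was not tested. Signal over background limited Mycn and Mycl, which gave no fold.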
